A study of Rattus norvegicus with 18 samples.

Results

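The genes described are 8 listed members of the cholesterol synthesis pathway and its regulation: Hmgcs1, Idi1, Fdps, Fdft1, Sqle, Lss, Cyp51 and Insig1. Members were all probe sets annotated to one of these genes alone. The rule found 11 probe sets of 7 genes, among 31142 probe sets on 2 array types and 13811 annotated genes, and all 11 were on the RAE230A array (array A below). No probe set was annotated to Hmgcs1 alone, so its level was not analysed here. The list holds synthesis enzymes and a sterol sensor but no gene of cholesterol uptake, and uptake genes were taken from a separate list further down. One probe set, Lss 1368086_a_at, gave deposited signals of 9.5 to 26.3 and was too dim to pass the filter on low values, so 10 probe sets were tested.

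The tissue was thoracic aorta of male Fisher 344 rats, given as 5 weeks old in the labels, sliced into rings of 2 mm. Rings were kept for 14 days in serum-free endothelial basal medium, a culture model in which microvessels sprout from the cut aortic wall together with other cells. On day 13 they received nothing (untreated), 10 ng/ml recombinant human vascular endothelial growth factor (VEGF), or 100 ng/ml recombinant human angiopoietin-1 (Ang1) with 5 µg/ml of an antibody to its histidine tag. The antibody was not given to the untreated or VEGF rings, so Ang1 and the antibody cannot be told apart. RNA of 4 to 6 pooled rings was taken at 20 h according to the labels and at 18 h according to the design text. Each group has 3 RNAs, each read on array A and on the companion array B, which makes 18 samples from 9 RNAs. The design text ties the RNAs of a group to 3 animals, and the labels do not tie replicate numbers to animals. In whole rings, fewer cells of a type and less RNA per cell cannot be told apart.

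Cholesterol is built from acetyl-CoA through mevalonate. Idi1 interconverts the isoprenoid building blocks, Fdps joins them into farnesyl diphosphate, Fdft1 makes squalene, Sqle oxidises it, Lss closes the sterol ring, and Cyp51 removes a methyl group from the resulting lanosterol. When sterols are low in the endoplasmic reticulum, SREBP-2, the product of Srebf2, is escorted by Scap to the Golgi and cleaved, and its released part activates genes of the pathway. When sterols are high, Insig1 holds Scap and the SREBP precursor back, and Insig1 is itself an SREBP target. In vessels, endothelial and smooth muscle cells make sterols and also take them up from lipoproteins.

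RefSeq promoters on build GRCr8 were matched for 6 of the 8 listed genes (Hmgcs1, Fdps, Idi1, Cyp51, Lss and Insig1). Each was searched on both strands over the 250 bases before the annotated gene start. The CCAAT box, the letters CCAAT, which is the binding sequence of NF-Y, was present in 5 of the 6 (all but Cyp51) and in 34% of all 33469 promoters of this length. The GC box GGGCGG, a binding sequence of Sp1, was present in 5 of the 6 (all but Idi1) and in 30.5% of all promoters. The sterol regulatory element core CACCCCAC was found in 0 of the 6 and in 2.32% of all promoters. The looser form TCANNCCAC was found in Fdps alone of the 6 and in 3.3% of all. These are letter matches in a short window and do not show binding. Lss and Idi1 are printed because their values after VEGF lay furthest above untreated relative to their errors, and Fdps because it carries the looser element. Capitals mark CCAAT or its reverse complement ATTGG and, in Fdps, the looser element read on the opposite strand, and the run ends 1 base before the gene start.
Lss, chr20:12118231-12118480, minus strand: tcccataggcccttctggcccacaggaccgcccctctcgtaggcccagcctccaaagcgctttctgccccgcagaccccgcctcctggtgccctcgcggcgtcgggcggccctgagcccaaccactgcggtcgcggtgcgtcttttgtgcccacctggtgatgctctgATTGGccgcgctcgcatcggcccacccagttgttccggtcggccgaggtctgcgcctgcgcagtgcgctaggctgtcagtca
Idi1, chr17:66547525-66547774, minus strand: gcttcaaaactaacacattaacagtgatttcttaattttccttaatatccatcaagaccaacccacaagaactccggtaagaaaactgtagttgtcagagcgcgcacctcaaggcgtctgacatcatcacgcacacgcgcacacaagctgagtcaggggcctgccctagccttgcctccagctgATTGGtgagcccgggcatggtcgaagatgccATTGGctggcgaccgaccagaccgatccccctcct
Fdps, chr2:176804817-176805066, minus strand: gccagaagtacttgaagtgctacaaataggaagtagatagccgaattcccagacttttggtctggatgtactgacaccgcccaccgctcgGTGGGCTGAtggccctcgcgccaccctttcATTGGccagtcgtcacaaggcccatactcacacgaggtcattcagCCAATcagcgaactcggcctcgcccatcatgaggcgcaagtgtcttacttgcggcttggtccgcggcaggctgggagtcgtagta
In Lss the single CCAAT match began 82 bases before the start, in Idi1 the matches began 66 and 35 bases before it, and in Fdps they began 130 and 85 bases before it, with the looser element at 160.

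A pair of libraries stood apart on array A when all genes were considered. For the 3′ Gapdh control probe set, untreated replicate 2 gave a signal of 64.4 and Ang1 replicate 2 one of 446.9, while the other 7 RNAs gave 2217.8 to 3246.8. The median correlation with the other arrays was 0.90 and 0.82 for these, and 0.93 to 0.97 for the rest. The label of untreated replicate 1 also names another amplification protocol than the other samples. Results below are given for all 9 arrays and again for the 7 arrays without these libraries, where untreated and Ang1 keep 2 RNAs each. Values are log2 of the deposited signal plus 16 after quantile normalisation, so a fold change understates the change of a dim gene, and levels of different probe sets cannot be set against each other.

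No member passed the threshold (adjusted p under 0.05, limma with Benjamini-Hochberg adjustment over all tested probe sets) in any comparison. In VEGF against untreated, 0 of 10 member probe sets and 0 of 9520 tested probe sets (0%) were called, and at an unadjusted p under 0.05 the counts were 0 of 10 and 157 (1.65%), or 0 of 10 and 294 (3.09%) with the replicate number as a block. In Ang1 against untreated they were 0 and 0 (0%), and unadjusted 0 of 10 and 302 (3.17%). In VEGF against Ang1 they were 0 and 0 (0%), and unadjusted 0 of 10 and 189 (1.99%). The 95% intervals of the member differences were 1.15 to 3.13 log2 units wide over 9 arrays, so small changes could have gone undetected.

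**Figure D1:**
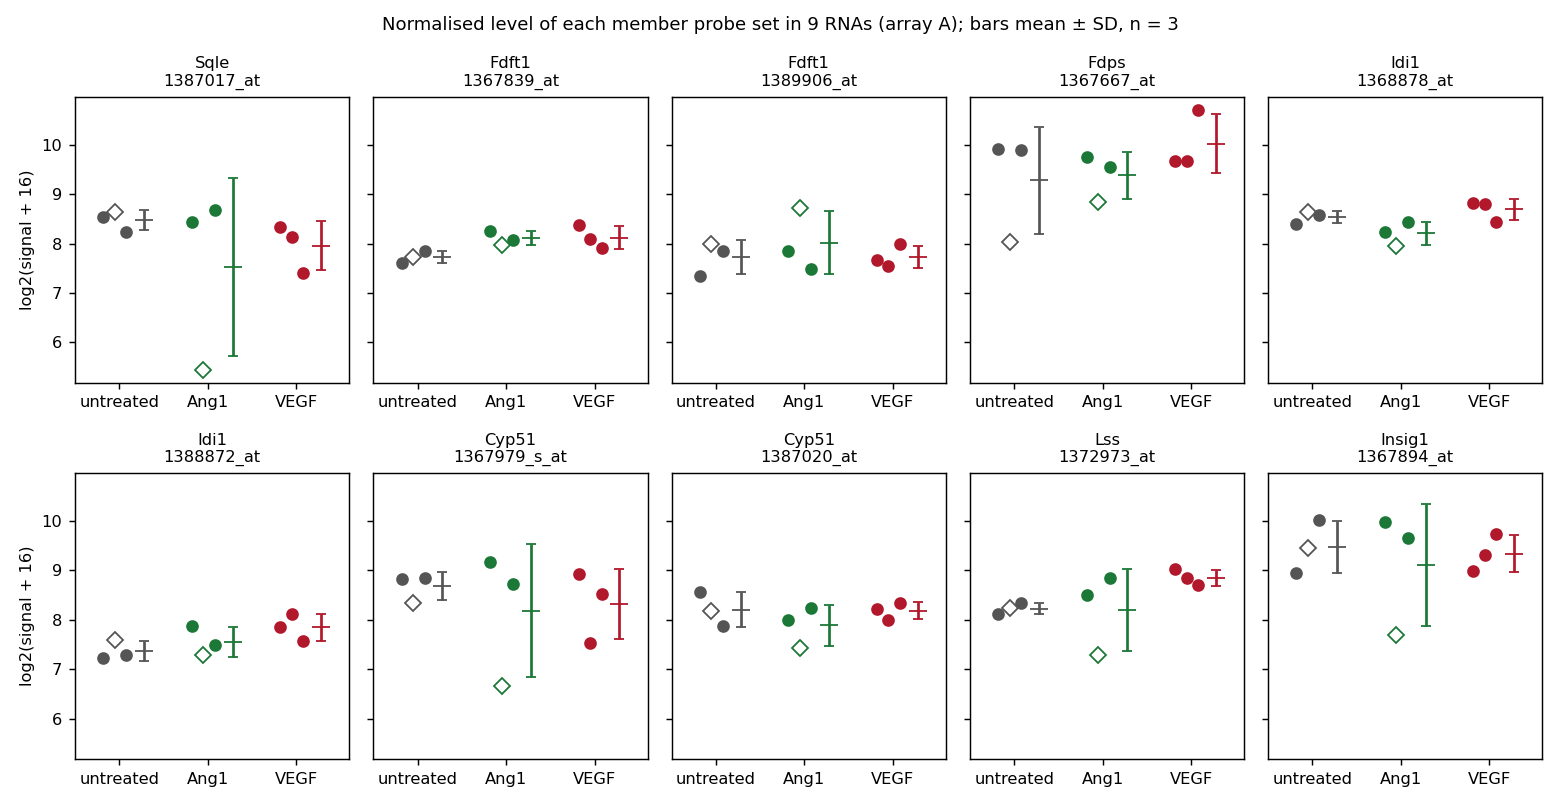
Normalised level, log2(signal + 16), of the 10 tested member probe sets in each RNA of array A. Points are RNAs, open diamonds are untreated replicate 2 and Ang1 replicate 2, and bars show mean ± SD (n = 3). The Ang1 diamond lies far below the others for Sqle (5.45), Cyp51 1367979_s_at (6.67), Insig1 (7.69) and Lss (7.28), and the untreated diamond for Fdps (8.04).

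Idi1 was read by 2 probe sets. Idi1 1388872_at stood at 7.22, 7.59 and 7.28 in untreated replicates 1 to 3, at 7.88, 7.28 and 7.50 after Ang1, and at 7.86, 8.11 and 7.57 after VEGF. The mean was highest after VEGF, but the lowest VEGF value fell just below the highest untreated one, and Ang1 overlapped both. The VEGF difference was 0.48 ± 0.29 (SE; 95% interval -0.15 to 1.11; limma adjusted p = 1.00), or 1.4-fold. Over the 7 arrays all VEGF values lay above the untreated ones and the difference was 0.62 ± 0.26 (unadjusted p = 0.0405, limma adjusted p = 1.00). Idi1 1368878_at stood at 8.39, 8.63 and 8.58 in untreated, 8.24, 7.96 and 8.43 after Ang1 and 8.82, 8.80 and 8.44 after VEGF. Here VEGF and untreated overlapped (0.16 ± 0.27), while all VEGF values lay above all Ang1 values by a small margin. That VEGF against Ang1 difference was 0.48 ± 0.27 (95% interval -0.11 to 1.07; limma adjusted p = 0.972).

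Fdps stood at 9.91, 8.04 and 9.90 in untreated, 9.76, 8.85 and 9.54 after Ang1 and 9.68, 9.67 and 10.71 after VEGF. Its deposited signal was 213.7 in untreated replicate 2, against 986 and 975.4 in the other untreated RNAs, and 1601 in VEGF replicate 3. The groups overlapped, and the VEGF difference of 0.73 ± 0.52 (95% interval -0.42 to 1.89; limma adjusted p = 1.00) came to 0.11 ± 0.34 without untreated replicate 2 and Ang1 replicate 2. Of the members, Fdps had the highest VEGF difference over 9 arrays, and it is the one that rested most on an untreated library.

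Fdft1 1367839_at stood at 7.60, 7.72 and 7.85 in untreated, 8.25, 7.98 and 8.08 after Ang1 and 8.37, 8.09 and 7.90 after VEGF. Every Ang1 value and every VEGF value lay above the highest untreated one. The difference was 0.38 ± 0.26 for Ang1 (95% interval -0.19 to 0.96; limma adjusted p = 0.953) and 0.39 ± 0.26 for VEGF (95% interval -0.18 to 0.97; limma adjusted p = 1.00), and both share the same untreated RNAs. Its within-group SD of 0.17 was the lowest among the members, and its values over 7 arrays were close to these (0.46 ± 0.28 and 0.41 ± 0.26). The other Fdft1 probe set, 1389906_at, gave another picture. It stood at 7.34, 8.00 and 7.85 in untreated, 7.85, 8.72 and 7.49 after Ang1 and 7.66, 7.54 and 7.99 after VEGF, with a mean of 7.73 in both untreated and VEGF. Across the 9 arrays the Pearson correlation of these probe sets was 0.00, and over 7 arrays 0.24, so the higher treated values of Fdft1 rest on one of its probe sets.

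Sqle stood at 8.53, 8.64 and 8.24 in untreated, 8.44, 5.45 and 8.68 after Ang1 and 8.33, 8.14 and 7.40 after VEGF. The deposited signal in Ang1 replicate 2 was 46.6, while the other 8 RNAs had 162.4 to 408.7. The Ang1 difference was -0.95 ± 0.71 (95% interval -2.52 to 0.61; limma adjusted p = 0.953) over 9 arrays and 0.17 ± 0.36 over 7, so its sign turned. The VEGF difference was -0.52 ± 0.71 and then -0.45 ± 0.33, with the groups overlapping in both. Over 7 arrays all VEGF values of Sqle lay below both remaining Ang1 values (-0.62 ± 0.33; limma adjusted p = 0.999), where the 9 arrays gave 0.44 ± 0.71.

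Lss 1372973_at stood at 8.11, 8.24 and 8.35 in untreated, 8.50, 7.28 and 8.85 after Ang1 and 9.02, 8.84 and 8.70 after VEGF. As deposited, the signal was 251.2 to 309.8 in untreated, 198.2 to 466.2 after Ang1 and 400.5 to 527.3 after VEGF. All VEGF values lay above all untreated values, and the Ang1 group held both higher and lower ones. The VEGF difference was 0.62 ± 0.38 (1.54-fold; 95% interval -0.23 to 1.47; limma adjusted p = 1.00), and over 7 arrays it was 0.64 ± 0.27 (95% interval 0.04 to 1.24; unadjusted p = 0.0382, limma adjusted p = 1.00). The Ang1 difference was -0.02 ± 0.38 over 9 arrays and 0.46 ± 0.29 over 7, where both remaining Ang1 values exceeded the untreated ones. VEGF against Ang1 gave 0.64 ± 0.38 and, over 7 arrays, 0.18 ± 0.27.

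Cyp51 1367979_s_at stood at 8.82, 8.35 and 8.85 in untreated, 9.17, 6.67 and 8.72 after Ang1 and 8.92, 7.54 and 8.53 after VEGF. Its lowest values were in Ang1 replicate 2 and VEGF replicate 2, and all groups overlapped. The differences from untreated were -0.49 ± 0.60 for Ang1 and -0.34 ± 0.60 for VEGF, and over 7 arrays 0.11 ± 0.44 and -0.52 ± 0.40. Cyp51 1387020_at stood at 8.57, 8.17 and 7.87 in untreated, 8.00, 7.43 and 8.25 after Ang1 and 8.23, 7.99 and 8.34 after VEGF. It too was lowest in Ang1 replicate 2, with a mean of 8.21 in untreated and 8.19 after VEGF. The correlation of the Cyp51 probe sets was 0.68 over 9 arrays and 0.17 over 7.

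Insig1, the sterol sensor of the list, stood at 8.95, 9.46 and 10.02 in untreated, 9.98, 7.69 and 9.66 after Ang1 and 8.99, 9.31 and 9.73 after VEGF. Its deposited signal ran from 490.3 to 1061.8 in untreated and from 518.8 to 797.4 after VEGF, with full overlap, and was 241.9 in Ang1 replicate 2. The VEGF difference was -0.13 ± 0.55 (95% interval -1.35 to 1.08; limma adjusted p = 1.00). The Ang1 difference was -0.37 ± 0.55 over 9 arrays and 0.34 ± 0.40 over 7, again with the sign turned.

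**Figure D2:**
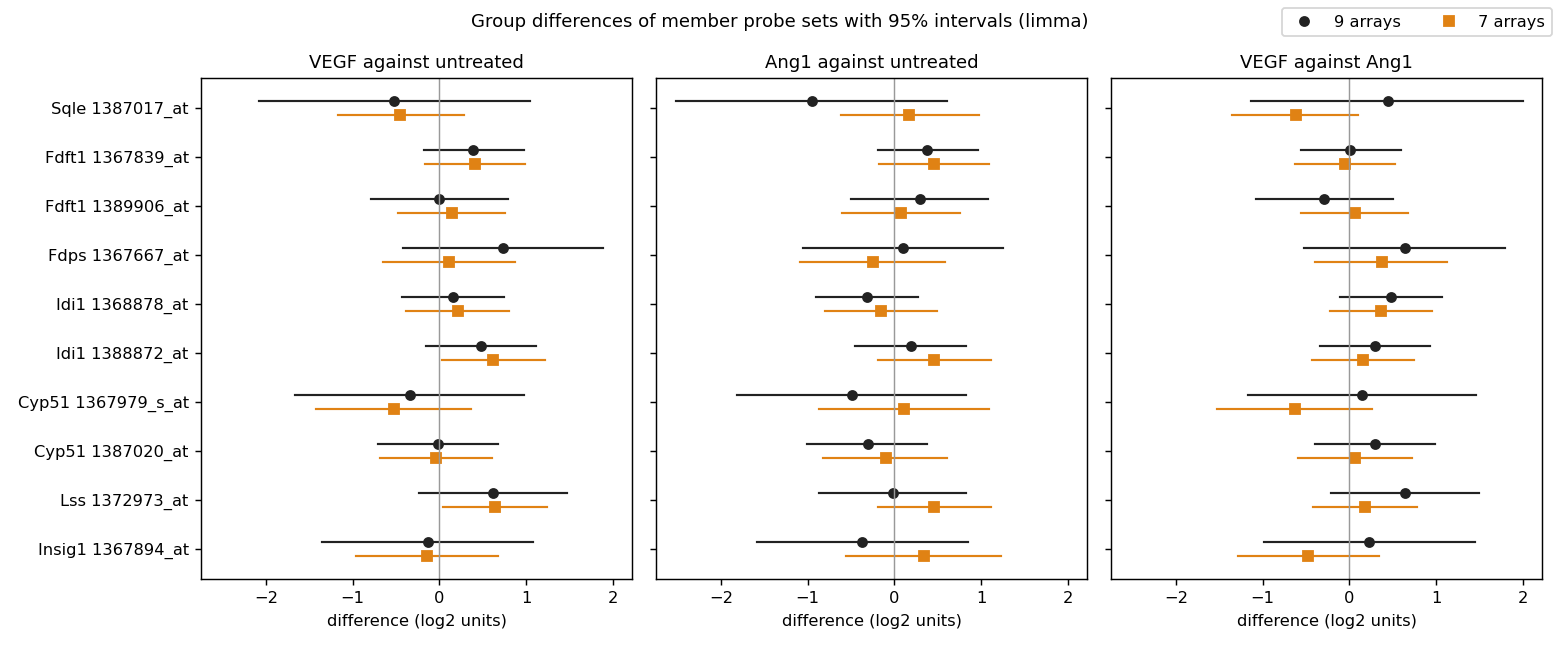
Difference of each member probe set in log2 units (points) with its 95% interval (lines) in 3 comparisons, over 9 arrays (circles) and over the 7 arrays without untreated replicate 2 and Ang1 replicate 2 (squares). Every 9-array interval crosses 0. Over 7 arrays the VEGF intervals of Idi1 1388872_at (0.03 to 1.22) and Lss (0.04 to 1.24) lie above 0, before any adjustment.

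Counted together, 5 member probe sets were higher and 5 lower in VEGF than in untreated, with a median difference of 0.08, against -0.01 over all tested probe sets. All VEGF values lay above untreated for 2 of 10 members (Lss and Fdft1 1367839_at) and for 3.63% of all probe sets, and below for 0 of 10 and 4.81%. In Ang1 against untreated, 4 were higher and 6 lower with a median of -0.17, against -0.03 over all. All Ang1 values lay above untreated for 1 of 10 (Fdft1 1367839_at) and 3.57% of all, and below for 0 of 10 and 5.54%. In VEGF against Ang1, 9 were higher and 1 lower with a median of 0.29, against 0.02 over all, and all VEGF values lay above for 1 of 10 (Idi1 1368878_at) and 3.77% of all, and below for 0 of 10 and 4.3%.

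Without the libraries that stood apart, the medians were 0.13 for VEGF against untreated, 0.14 for Ang1 against untreated and 0.06 for VEGF against Ang1, and the 9 to 1 split became 6 to 4. The members called again numbered 0 in each comparison, as did all probe sets (0%). At an unadjusted p under 0.05, VEGF against untreated had 2 of 10 (Lss and Idi1 1388872_at) against 3.17% of all, Ang1 against untreated 0 of 10 against 3.15%, and VEGF against Ang1 0 of 10 against 3.29%. All VEGF values lay above untreated for 3 of 10 (Lss, Idi1 1388872_at and Fdft1 1367839_at) against 7.86% of all. Both Ang1 values lay above both untreated values for 3 of 10 (the same 3 probe sets) against 18.2%, and below for 1 of 10 (Fdps) against 18.6%. VEGF lay above Ang1 for 1 of 10 (Idi1 1368878_at) against 8.53%, and below for 1 of 10 (Sqle) against 9.66%. The VEGF and Ang1 comparisons use the same untreated RNAs.

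**Figure D3:**
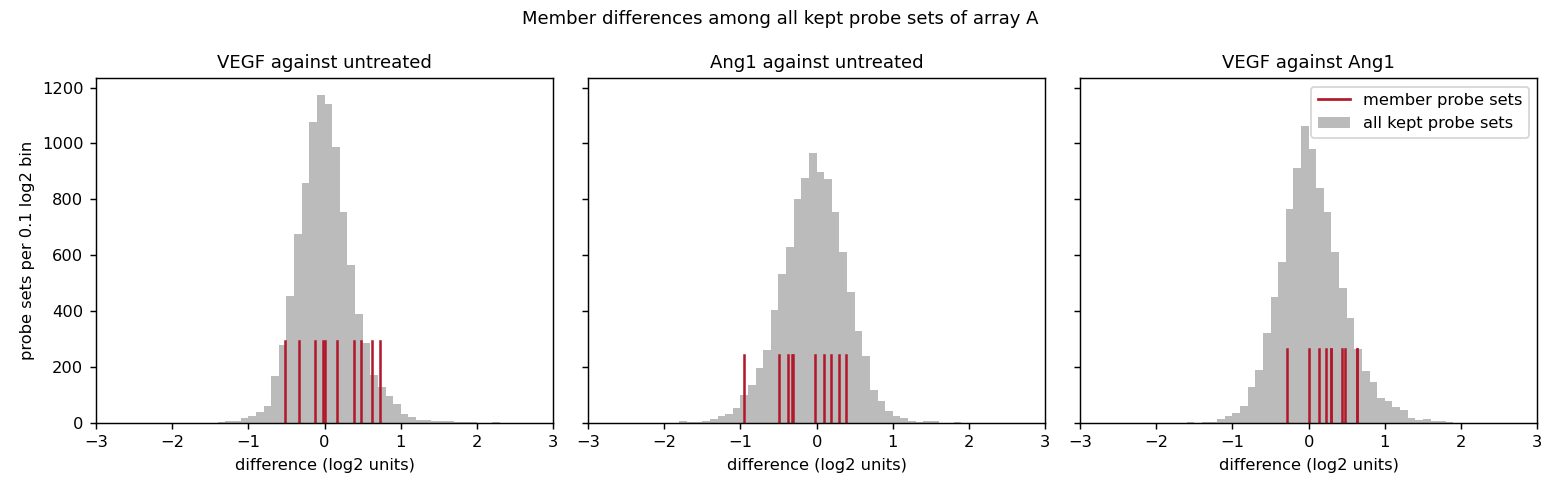
Histograms of the log2 difference of all 9520 tested probe sets of array A (grey, bins of 0.1) in 3 comparisons over 9 arrays, with the 10 member probe sets as red lines whose height has no meaning. The members lie within the grey distribution, from -0.52 to 0.73 in VEGF against untreated, -0.95 to 0.38 in Ang1 against untreated and -0.29 to 0.64 in VEGF against Ang1.

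Ang1 replicate 2 held most of the lowest member values. It was the lowest of the 9 RNAs in 6 of 10 member probe sets, against 26.8% of all tested probe sets, and the highest in 1, Fdft1 1389906_at. Against the mean of the 7 other RNAs, leaving out untreated replicate 2, its values were lower by at least 1 log2 unit for 5 of 10 members, against 19.8% of all. These were Sqle (-2.81), Cyp51 1367979_s_at (-1.99), Insig1 (-1.83), Lss (-1.34) and Fdps (-1.04). The other Cyp51 probe set was at -0.75, the Idi1 ones at -0.57 and -0.36, and the Fdft1 ones at -0.04 and 1.05. In untreated replicate 2 the members kept to the level of the other RNAs except Fdps (-1.84), with 1 of 10 lower by at least 1 log2 unit against 11.5% of all. Untreated replicate 1, whose label names another amplification protocol, was the lowest RNA in 3 of 10 members, against 8.32% of all. These were Idi1 1388872_at (7.22), Fdft1 1367839_at (7.60) and Fdft1 1389906_at (7.34). That RNA stays in the results over 7 arrays. With it alone left out, the VEGF difference from untreated was 0.33 ± 0.30 for Fdft1 1367839_at and -0.19 for Fdft1 1389906_at. It was then 0.55 ± 0.45 for Lss and 1.04 ± 0.57 for Fdps. For Idi1 1388872_at the difference was at least 0.35 with any 1 library left out. The part of the amplification protocol in these values was not tested.

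**Figure D4:**
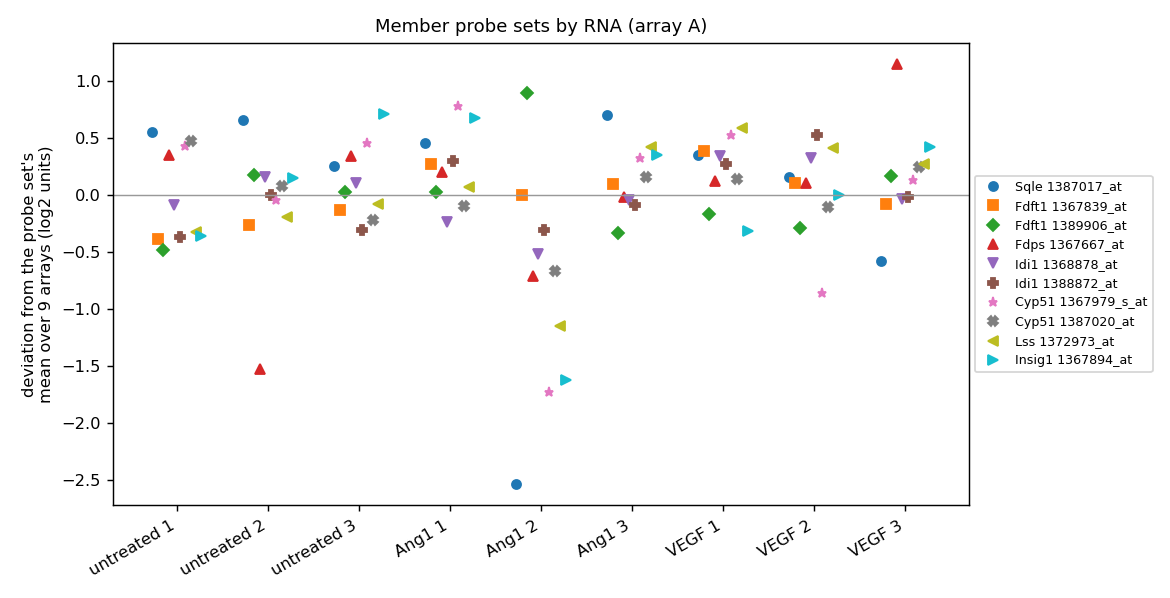
Deviation of each member probe set from its own mean over the 9 arrays, in log2 units, for each RNA of array A (one marker per probe set). In Ang1 replicate 2 the markers of Sqle, Cyp51 1367979_s_at, Insig1 and Lss lie more than 1 unit below 0, as does Fdps in untreated replicate 2, and VEGF replicate 3 has the highest Fdps value.

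The within-group SD of Sqle fell from 1.08 to 0.38 when both libraries were left out, that of Cyp51 1367979_s_at from 0.89 to 0.55, that of Insig1 from 0.81 to 0.47, that of Fdps from 0.76 to 0.43 and that of Lss from 0.49 to 0.19. The median over all tested probe sets went from 0.44 to 0.31. The members' correlation with each other went the same way. Among the 45 pairs of member probe sets the median Pearson correlation was 0.34 over 9 arrays, with 14 pairs above 0.5 and 11 below 0. Over 7 arrays it was -0.09, with 6 pairs above 0.5 and 24 below 0. All pairs share the same RNAs, so these are descriptions of 9 and of 7 points. The genes whose brightest probe set followed the members' mean most closely over the 9 arrays were Rrp15, Esam, Scap, Hdac6 and Ube2o, with Pearson correlations of 0.99, 0.99, 0.99, 0.99 and 0.98. Each was lowest in Ang1 replicate 2, and 260 of the 7170 genes compared exceeded 0.9. Over 7 arrays these 5 had 0.72 to 0.91, but they were picked on the 9 arrays that include those 7. The values over 7 arrays are therefore a description and not a separate check.

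The transcription factors behind the pathway were measured on array A. Srebf2 1371979_at stood at 8.14, 8.24 and 8.24 in untreated, 8.38, 10.11 and 8.91 after Ang1 and 8.77, 8.70 and 8.44 after VEGF. All Ang1 and all VEGF values lay above the untreated ones, which held for 3.57% (Ang1) and 3.63% (VEGF) of all probe sets. Ang1 replicate 2 was by far the highest, in the RNA where Sqle, Insig1 and Lss were lowest. The Ang1 difference was 0.93 ± 0.40 (unadjusted p = 0.0408, limma adjusted p = 0.953) and the VEGF difference 0.43 ± 0.40. Over 7 arrays these were 0.47 ± 0.30 and 0.46 ± 0.28, neither with an unadjusted p under 0.05. Another Srebf2 probe set, 1377489_at, did not pass the filter and was not tested. Srebf1, whose products also drive fatty acid genes, had probe sets that disagreed. Srebf1 1388426_at was at 5.73 in Ang1 replicate 2 and 6.51 in untreated replicate 2, against 8.67 to 9.77 in the other 7 RNAs. Srebf1 1371104_at was at 8.37 in Ang1 replicate 2, against 6.12 to 7.19 in the other 8.

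Other genes of the pathway are counted by the brightest tested probe set of each gene, with 0 called in every list, comparison and array type. Of 13 further synthesis genes, 9 were tested on array A, with 3 higher and 6 lower in VEGF than in untreated (median -0.06) and 4 higher and 5 lower in Ang1 (median -0.08). Of 6 genes of sterol sensing and SREBP processing, 4 were higher and 2 lower in VEGF (median 0.32) and 2 higher and 4 lower in Ang1 (median -0.47), with Srebf2 the 1 at an unadjusted p under 0.05. Of 11 genes of uptake and lysosomal release, 6 were tested on array A, with 2 higher and 4 lower in VEGF (median -0.07) and 1 higher and 5 lower in Ang1 (median -0.14). Of 8 genes of efflux, esterification and oxysterols, 5 were tested, with 4 higher and 1 lower in VEGF (median 0.12) and 3 higher and 2 lower in Ang1 (median 0.21). Of 10 fatty acid genes driven by SREBP-1, 9 were tested, with 5 higher and 4 lower in VEGF (median 0.09) and 3 higher and 6 lower in Ang1 (median -0.07). Among these, Fads2, a fatty acid desaturase, reached an unadjusted p of 0.0459 in VEGF against Ang1 (-0.91 ± 0.40, limma adjusted p = 0.972), with 8.44 in Ang1 replicate 2 and 6.41 to 6.97 in the other 8 RNAs, and -0.43 ± 0.25 (unadjusted p = 0.115) over 7 arrays. Over those 7 arrays Elovl6, a fatty acid elongase, was the gene of this list with an unadjusted p under 0.05 in VEGF against Ang1 (0.78 ± 0.32, unadjusted p = 0.0363, limma adjusted p = 0.999), where 9 arrays gave 0.36 ± 0.45. In this setting, added for the lists after seeing the data, the sterol sensing and SREBP genes had medians of 0.11 in VEGF and 0.07 in Ang1, and those of the other 4 lists lay between -0.04 and 0.08 in both. Array B held no member, and at most 2 genes of each pathway list passed its filter. Its calls were 0 of 9166 probe sets (0%) in each comparison, and unadjusted 66 (0.72%) in VEGF against untreated, 960 (10.5%) in Ang1 against untreated and 777 (8.48%) in VEGF against Ang1.

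Markers of the cell types of the ring and control probe sets are given beside the VEGF values of Lss, Idi1 1388872_at and Fdft1 1367839_at. No marker was called in any comparison. The summed normalised signal of 10 tested smooth muscle markers of 11 listed was 8619 to 9899 after VEGF, 10459 to 10759 after Ang1 and 11172 to 15625 in untreated, and 8 of the 10 were lower than in untreated both in VEGF and in Ang1 (9 and 8 of 10 over 7 arrays). Their mean deviation per RNA, which weights the markers equally, overlapped (-0.26 to 0.03 after VEGF, -0.38 to 0.17 after Ang1 and -0.35 to 0.52 in untreated). The summed signal of 9 tested macrophage markers of 12 was 13663 to 16860 after VEGF and 9137 to 15032 in untreated. The sum of 8 tested endothelial markers of 10 was 1975 to 2645 and 1490 to 2442. The 8 fibroblast markers summed to 33171 to 33606 and 31296 to 33583. The 5 tested adipocyte markers of 10 summed to 960 to 1181 and 1088 to 1167, and the 2 tested Schwann cell markers of 6 to 1258 to 1982 and 1628 to 2888. Of the 9 macrophage markers, 7 were higher and 2 lower in VEGF than in untreated over 9 arrays. Over 7 arrays all 9 were higher in VEGF and in Ang1. At an unadjusted p under 0.05 over 7 arrays, VEGF against untreated had 5 of 10 smooth muscle, 1 of 8 endothelial and 1 of 8 fibroblast markers. It had 0 of 9 macrophage markers, against 3.17% of all probe sets. The ratio of the 3′ to the 5′ actin control, a measure of RNA or amplification quality, was 8.79 to 12.4 after VEGF, 6.18 to 8.29 after Ang1 and 1.86 to 7.7 in untreated. The same ratio of the Gapdh control overlapped between all groups, at 9.26 to 15.1, 2.27 to 11.3 and 1.7 to 11.9. The part of these measures in the members' values was not tested.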

How the data were processed

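The deposited intensity values were made by the authors with MAS5, per the submitters' processing notes; its version and settings are not given in the sources used here. Genes were named through the platform annotation, in which 12789 probe sets of array A had 1 gene symbol, 312 several and 2822 none. Array A and array B were analysed apart in R 4.3.3 with limma 3.58.1: 57 control probe sets left out on each array type, log2(value + 16), quantile normalisation, probe sets kept whose mean over the 9 arrays lay above the 40th percentile (9520 of 15923 on array A, 9166 of 15333 on array B), then lmFit and eBayes on 3 groups with Benjamini-Hochberg adjustment over all kept probe sets. The procedure was tested on simulated data with a smaller spread than these arrays and no library that stood apart. That test therefore does not show what could be detected here. P-values set a group difference against the spread between RNAs within groups, estimated over the 3 groups together. The members and the lists were chosen with earlier results of these data known. All member probe sets are named, as are Srebf1 and Srebf2, genes of the pathway lists with an unadjusted p under 0.05 over 9 arrays, and the 5 genes most correlated with the members' mean; some listed genes are not reported here. The labels do not tie replicate numbers to animals; deviations of same-numbered samples correlated at 0.34 to 0.49 between untreated and Ang1 and 0.14 to 0.41 between untreated and VEGF (all 3 above 0.1 in each), and at -0.15 to 0.23 between Ang1 and VEGF, while differently numbered samples ranged from -0.45 to 0.33. The block was an alternative throughout. Alternatives were the pseudocount, normalisation, filter, a replicate block, the groups in the fit, array weights and leaving out libraries. The number of arrays limits the precision.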

Additional observations from a re-analysis of the deposited data

How the results depend on the processing

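Across 18 alternative settings, 0 member probe sets were called in any comparison. Of the 30 member differences, 15 never changed sign and 15 did under some setting. With array weights, Ang1 against untreated had 6 called probe sets on array A and 2 on array B, and VEGF against Ang1 had 24 and 8, where equal weights gave 0. With values as deposited, array B gave 117 in Ang1 against untreated and 25 in VEGF against Ang1; 1 array B of the Ang1 group was deposited at another scale than the others (trimmed mean 94.79 against 250). The median over members in Ang1 against untreated was 0.21 with array weights, and -0.38 to 0.31 with 1 library left out, the highest without Ang1 replicate 2. Array B holds no member, so no median could be given there.

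In VEGF against untreated, signs turned with values as deposited for Cyp51 1387020_at (0.07) and Fdft1 1389906_at (0.13), the latter also without both libraries that stood apart (0.14). In Ang1 against untreated, Fdps came to -0.18 with median scaling, -0.02 with array weights and -0.25 without both libraries; Lss to 0.00 with a pseudocount of 64, 0.22 as deposited, 0.32 with weights and 0.46 without both. Insig1 came to 0.43 with weights and 0.34 without both libraries, Cyp51 1367979_s_at to 0.24 and 0.11, and Sqle to 0.00 and 0.17. In VEGF against Ang1, values as deposited, array weights and leaving out both libraries gave -0.03, -0.06 and -0.05 for Fdft1 1367839_at and -0.06, -1.06 and -0.63 for Cyp51 1367979_s_at. Weights and leaving out both gave -0.62 and -0.48 for Insig1 and -0.29 and -0.62 for Sqle, and leaving out both gave 0.06 for Fdft1 1389906_at. The cause was not tested.

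With 1 library left out, the VEGF differences from untreated ranged from -0.39 to 0.13 for Insig1, -0.63 to 0.05 for Cyp51 1367979_s_at, -0.19 to 0.16 for Cyp51 1387020_at and -0.19 to 0.13 for Fdft1 1389906_at. Those of Ang1 ranged from -0.51 to 0.41 for Fdps, -0.8 to 0.35 for Insig1, -0.98 to 0.28 for Cyp51 1367979_s_at, -0.34 to 0.46 for Lss, -1.52 to 0.09 for Sqle and -0.06 to 0.55 for Fdft1 1389906_at. VEGF against Ang1 ranged from -0.11 to 0.13 for Fdft1 1367839_at, -0.49 to 0.67 for Insig1, -0.64 to 0.64 for Cyp51 1367979_s_at, -0.63 to 1.01 for Sqle and -0.55 to 0.06 for Fdft1 1389906_at. With the replicate number as a block, 0 probe sets were called in each comparison, so no call changed, and those at an unadjusted p under 0.05 on array A numbered 294, 415 and 408 against 157, 302 and 189 without it.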
